A study of Homo sapiens with 16 samples.

Results

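The 10 genes described here encode the FGF receptors FGFR1, FGFR2, FGFR3 and FGFR4, the FGF binding protein FGFBP1, and 5 targets of ERK signalling, namely SPRY2, SPRY4, DUSP6, ETV4 and ETV5. They were taken by name from a table of 58721 genes, and no measured value entered the rule, although earlier results of these data were known when the genes were chosen. RNA was measured by sequencing of transcript 3' ends in RT112, a bladder cancer line of luminal type, and in SCaBER, a bladder carcinoma line of basal and squamous type. Each line was transfected with Lipofectamine RNAiMax and 10 nM of 1 of 4 siRNAs, namely siFOXA1.1 and siFOXA1.2, which target the transcription factor FOXA1, and the controls siControl.1 and siControl.2. Each of the 8 combinations of line and siRNA has 2 libraries from 2 experiment batches, so that each line has 4 control libraries and 4 siFOXA1 libraries. RT112 was grown in RPMI and SCaBER in DMEM, both with FBS, and line and medium therefore cannot be told apart. Each line stands for a single tumour, and no untransfected cells were included.

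FGF receptors are receptor tyrosine kinases at the cell surface that bind FGF ligands together with heparan sulphate and pass the signal through adaptor proteins to RAS, RAF, MEK and ERK. Active ERK raises transcription of the PEA3 factors ETV4 and ETV5 and of its own inhibitors. These inhibitors include DUSP6, a phosphatase that removes the activating phosphates from ERK, and the Sprouty proteins SPRY2 and SPRY4, which block the signal upstream of RAF. FGFBP1 is secreted and releases FGF ligands from the extracellular matrix. FGFR3 is the receptor best known in bladder cancer, where it is often activated by mutation or by fusion to TACC3 in luminal tumours, and RT112 is known to carry such an FGFR3-TACC3 fusion.

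The genes lie at separate places in the genome (GRCh38.p14, RefSeq). FGFR3 spans chr4:1793293-1808867, FGFBP1 chr4:15935577-15938740, FGFR2 chr10:121478330-121598458 and FGFR4 chr5:177086915-177098144. DUSP6 spans chr12:89347235-89352501, ETV4 chr17:43527846-43546340, ETV5 chr3:186046314-186109089, SPRY2 chr13:80335976-80341126 and SPRY4 chr5:142310430-142325021. The annotation places DHX8 across part of ETV4, SPRY4-IT1 across part of SPRY4, ETV5-AS1 across part of ETV5 and the readthrough gene POC1B-DUSP6 across DUSP6. The counts were made on another annotation, GENCODE 29, and how reads in the shared stretches were assigned was not examined.

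Promoter sequences are shown for FGFR3, FGFBP1 and DUSP6, since their RNA was lower under siFOXA1.1 in RT112 and RefSeq (GRCh38.p14) gave a promoter for them. Each runs from 250 bases before to 50 bases after the transcription start, read 5′ to 3′ along the strand of the gene, at chr4:1793043-1793342 (plus strand), chr4:15938691-15938990 (minus strand) and chr12:89352452-89352751 (minus strand). Capitals mark the GC box, whose letters are GGGCGG, on either strand. They also mark, on either strand, the CCAAT box, named after its letters, and the letters AGGAAG, the PEA3 core that ETV4 and ETV5 bind.
FGFR3: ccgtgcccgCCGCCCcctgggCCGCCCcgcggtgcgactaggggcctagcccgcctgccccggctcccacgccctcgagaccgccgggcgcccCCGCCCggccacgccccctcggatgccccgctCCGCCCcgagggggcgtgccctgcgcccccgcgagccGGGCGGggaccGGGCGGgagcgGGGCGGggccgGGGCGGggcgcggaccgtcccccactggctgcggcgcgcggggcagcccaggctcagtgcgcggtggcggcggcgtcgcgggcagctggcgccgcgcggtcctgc
FGFBP1: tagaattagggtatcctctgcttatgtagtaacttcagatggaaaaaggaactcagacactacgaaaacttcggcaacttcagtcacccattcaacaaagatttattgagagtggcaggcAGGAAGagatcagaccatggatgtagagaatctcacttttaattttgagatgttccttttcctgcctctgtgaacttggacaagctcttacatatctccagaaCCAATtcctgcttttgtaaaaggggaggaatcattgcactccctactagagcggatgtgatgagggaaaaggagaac
DUSP6: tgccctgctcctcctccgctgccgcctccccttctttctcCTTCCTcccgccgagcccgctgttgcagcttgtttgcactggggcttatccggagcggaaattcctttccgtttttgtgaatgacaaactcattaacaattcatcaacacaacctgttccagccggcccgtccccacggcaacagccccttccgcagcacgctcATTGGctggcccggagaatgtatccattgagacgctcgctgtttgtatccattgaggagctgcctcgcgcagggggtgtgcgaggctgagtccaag

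The FGFR3 promoter consisted of 86.3% G and C and held 8 GC boxes, at positions -241 to -55 counted from the start. The FGFBP1 promoter had 42% G and C, and the DUSP6 promoter 58.3%, equal to the median of 58.3% over 27305 promoters of 300 bases. FGFBP1 and DUSP6 each held 1 PEA3 core (positions -130 and -210) and 1 CCAAT box (positions -27 and -46). These letters are common, with the PEA3 core in 33.7%, the CCAAT box in 35.7% and the GC box in 44.6% of all promoters. Of the 10 genes, 7 had a promoter in the table, and none of these 7 held the forkhead letters TGTTTAC, nor the related form TATTTAC, which together 6.05% of all promoters hold. None held the longer ETS letters CCGGAAGT, nor the related form CAGGAAGT, which together 7.41% hold. Other forms of the forkhead and longer ETS letters were not searched, so sites that depart from these forms would have been missed.

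Library totals ran from 4528513 to 7604581 counts, and 3 counts, taken as the detection floor for counting error alone, equalled 0.394 to 0.662 CPM, the count of a gene scaled to a fixed total per library. FOXA1 in RT112 measured 18.2 to 35.0 CPM in the control libraries, 1.32 and 3.24 CPM under siFOXA1.1, and 9.18 and 16.0 CPM under siFOXA1.2. The fitted log2 change was -3.44 (SE 0.47, adjusted p = 2.19e-05, edgeR) for siFOXA1.1. For siFOXA1.2 it was -1.10 (SE 0.39, unadjusted p = 0.0116, adjusted p = 0.205, edgeR), with both libraries below all RT112 controls. After adjustment over all genes tested, the knock-down thus passed the threshold for siFOXA1.1 alone. In SCaBER, FOXA1 had 0 to 15 counts per library and could not be tested, and a knock-down there was not measurable at this depth. Summed luminal markers (8 genes) stood at 1961 to 2112 CPM in the RT112 controls, 1173 to 1391 CPM under siFOXA1.1 and 1269 to 1276 CPM under siFOXA1.2, and at 43.0 to 79.5 CPM in SCaBER, with KRT20 at 0 in most libraries and UPK3A at 0 in all groups. The 8 basal markers summed to 384 to 542, 545 to 673 and 669 to 772 CPM in the same RT112 groups and to 2667 to 4412 CPM in SCaBER. Under siFOXA1.1 in RT112, 5 of 6 luminal markers tested were lower and 3 of 7 basal markers higher. Of all genes, 17.0% were lower and 32.6% changed in either direction. The luminal ERBB2 (log2 change 0.27) and the basal CDH3 (0.42), KRT16 (-0.16), KRT6A (-0.34) and KRT14 (-2.06) did not pass. Under siFOXA1.2, with no member passing, 2 of 6 luminal markers were lower and 3 of 7 basal higher, where 2.04% of all genes changed. The RT112 siFOXA1.1 libraries also differed from the others in ways the 10 genes do not cover. Mitochondrial genes took 25.7% and 28.2% of their counts, against 18.0% to 21.2% in the RT112 controls, and 8 stromal and immune markers summed to 54.4 and 58.1 CPM against 10.4 to 17.7 CPM, nearly all of it COL1A1, with COL3A1, PDGFRB, DCN, PTPRC and CD68 at 0. The part of these marker, mitochondrial and stromal differences in the results below was not tested.

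The first comparison asked how much of each gene the lines contained under the control siRNAs. Levels are compared between genes in TPM (counts per gene length, scaled to a fixed total), although a 3' library gives about 1 read per transcript whatever its length, so that division by length understates long transcripts. In RT112 the order was FGFBP1 at 59 ± 34.8 TPM, FGFR3 at 50.6 ± 21.7 TPM and DUSP6 at 44.5 ± 2.64 TPM (SD, n = 4 libraries each), and these 3 overlapped. ETV4 at 14.2 ± 2.50 TPM, ETV5 at 9.19 ± 3.44 TPM and FGFR2 at 3.92 ± 1.61 TPM followed, each overlapping its neighbour in the order. The lowest DUSP6 library stood above the highest ETV4 library, and the lowest FGFR2 library above the highest SPRY2 library. SPRY2 (0.940 ± 0.490 TPM), SPRY4 (0.918 ± 0.722 TPM), FGFR1 (0.178 ± 0.232 TPM) and FGFR4 (0.0250 TPM, with 3 of 4 libraries at 0) closed the order and overlapped. Without division by length the order changed. FGFBP1 averaged 40.3 CPM in the RT112 controls, below FGFR3 at 124 CPM and DUSP6 at 105 CPM. Its highest control library (60.9 CPM) lay below the lowest of FGFR3 (80.0 CPM) and of DUSP6 (103 CPM). ETV4 and ETV5 were nearly equal, at 26.2 and 27.0 CPM.

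In SCaBER the order differed. FGFBP1 led at 459 ± 240 TPM, above all other members in every control library, and only 0.395% of genes in the table had a higher mean. ETV5 (18.4 ± 6.73 TPM), DUSP6 (14.9 ± 1.78 TPM) and ETV4 (8.74 ± 4.43 TPM) overlapped their neighbours and stood above FGFR2 (3.88 ± 1.43 TPM). FGFR3 measured 1.13 ± 0.714 TPM, overlapping SPRY2 at 0.888 ± 0.401 TPM, and 22.6% of genes had a higher mean, against 2.78% in RT112. SPRY4 (0.80 ± 0.581 TPM) and FGFR4 (0.215 ± 0.257 TPM) had lower means but overlapped their neighbours in the order, and FGFR1 was listed at 0 in all 8 SCaBER libraries.

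**Figure D1:**
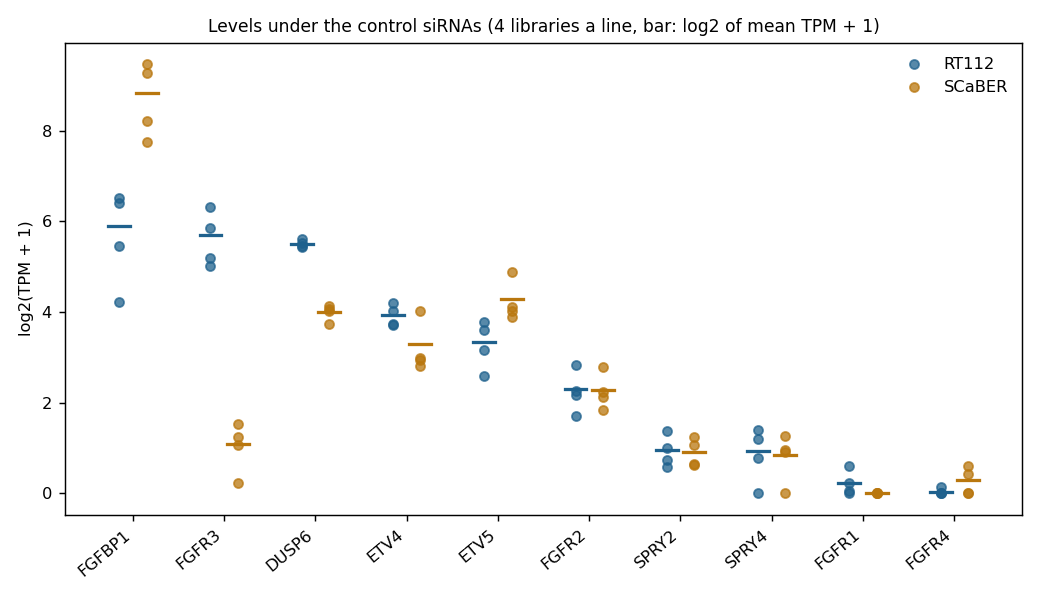
Level of each gene in the 4 control libraries of RT112 and of SCaBER, on the log2(TPM + 1) scale, with bars at the mean TPM. FGFR3 separates the lines (mean 50.6 against 1.13 TPM), FGFBP1 is higher in SCaBER (459 against 59 TPM), and both Sprouty genes, FGFR1 and FGFR4 lie near the bottom in both lines.

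Between the lines, 4 of the 7 members that passed the count filter differed under the control siRNAs, where 43.4% of all 12309 genes tested differed. FGFR3 led the RT112 side, with a log2 difference of 5.90 (SE 0.43, adjusted p = 5.18e-08, edgeR quasi-likelihood test with Benjamini-Hochberg adjustment over all genes tested, as for every adjusted p below). DUSP6 was higher by 1.98 (SE 0.16, adjusted p = 1.56e-07) and ETV4 by 1.11 (SE 0.32, adjusted p = 0.0105). FGFBP1 was lower in RT112, with a log2 difference of -2.60 (SE 0.44, adjusted p = 0.000197). The line with more receptor FGFR3 thus also had more of the phosphatase and of 1 of the PEA3 factors, while the secreted binding protein had the opposite order. FGFR2 (0.39, SE 0.37, adjusted p = 0.419), ETV5 (-0.62, SE 0.29, adjusted p = 0.101) and SPRY4 (0.54, SE 1.03, adjusted p = 0.708) did not pass. The ETV4 difference was lost when log2(TPM + 1) values were tested with limma (0.72, adjusted p = 0.0555), and ETV5 passed there (-0.94, adjusted p = 0.0253).

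In RT112, the receptor FGFR3, the phosphatase DUSP6 and the PEA3 factor ETV4 had less RNA under siFOXA1.1 in every alternative analysis, and the ligand binding protein FGFBP1 had less than in both controls together but not than in siControl.1 alone. Of the 8 members tested, 4 were lower than in both controls (FGFR3, FGFBP1, DUSP6 and ETV4) and none was higher, where 17.0% of 11986 genes were lower and 32.6% changed in either direction. Fewer cells of a type and less RNA per cell cannot be told apart in such bulk libraries. The 6 members with enough counts in both lines are followed one by one.

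FGFR3 measured 80.0 and 90.6 CPM under siControl.1, 187 and 139 CPM under siControl.2, 49.1 and 15.3 CPM under siFOXA1.1, and 119 and 100.2 CPM under siFOXA1.2 in RT112. Both siFOXA1.1 libraries lay below all 4 controls, the siFOXA1.2 libraries lay within them, and the 2 control siRNAs did not overlap. These differed by -0.87 (SE 0.31, adjusted p = 0.188), a difference that passed without the filter on low counts (adjusted p = 0.00106) and without siFOXA1.1 replicate 1 (adjusted p = 0.00772) or 2 (adjusted p = 0.00670). The change was -1.75 on the log2 scale under siFOXA1.1 (SE 0.30, adjusted p = 0.000181) and -0.09 under siFOXA1.2 (SE 0.27, adjusted p = 0.952). The siFOXA1.1 libraries differed from each other, at 36.8% of the control mean in batch 1 and 13.4% in batch 2, so the change was -2.78 without siFOXA1.1 replicate 1 and -1.16 without replicate 2, and passed in both. It passed against either control alone, at -1.31 (adjusted p = 0.00532) against siControl.1 and -2.18 (adjusted p = 7.05e-05) against siControl.2. With mitochondrial genes left out of the counts the change was again -1.75. An FGFR3-TACC3 fusion transcript would be counted at the TACC3 end, so these values cover FGFR3 transcripts with their own 3' end.

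DUSP6 was the steadiest member among the RT112 controls. It measured 103 and 104 CPM under siControl.1, 109.6 and 104 CPM under siControl.2, 50.8 and 28.1 CPM under siFOXA1.1, and 104 and 94.0 CPM under siFOXA1.2. Both siFOXA1.1 libraries fell below all controls, at 47.7% and 27.0% of the control mean of their batch. The log2 change was -1.29 under siFOXA1.1 (SE 0.20, adjusted p = 8.20e-05), with -1.74 and -0.95 without siFOXA1.1 replicates 1 and 2, and -0.07 under siFOXA1.2 (SE 0.19, adjusted p = 0.95).

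ETV4 measured 32.6 and 23.3 CPM under siControl.1, 21.4 and 27.5 CPM under siControl.2, 7.62 and 3.68 CPM under siFOXA1.1, and 28.6 and 25.0 CPM under siFOXA1.2. The siFOXA1.1 libraries lay below every other RT112 library, at 28.2% and 14.5% of the control mean of their batch. The log2 change was -2.08 under siFOXA1.1 (SE 0.37, adjusted p = 0.000258), with -2.66 and -1.68 without siFOXA1.1 replicates 1 and 2, and 0.05 under siFOXA1.2 (SE 0.32, adjusted p = 0.976). ETV5, its closest relative, stood apart from ETV4. It measured 24.1 and 15.3 CPM under siControl.1, 36.2 and 32.4 under siControl.2, 30.6 and 16.1 under siFOXA1.1, and 27.2 and 20.3 under siFOXA1.2, and the groups overlapped throughout. Its log2 changes of -0.03 (SE 0.31, adjusted p = 0.959) and -0.11 (SE 0.31, adjusted p = 0.951) did not pass, and whether ETV4 and ETV5 differed in their change was not tested.

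FGFBP1 depended on the control. In RT112 it measured 30.5 and 12.7 CPM under siControl.1, 60.9 and 57.3 CPM under siControl.2, 12.3 and 20.04 CPM under siFOXA1.1, and 57 and 43.4 CPM under siFOXA1.2. The siFOXA1.1 libraries overlapped siControl.1 and lay below siControl.2. The log2 change against both controls was -1.004 (SE 0.32, adjusted p = 0.0227), against siControl.1 alone -0.31 (adjusted p = 0.575) and against siControl.2 alone -1.70 (adjusted p = 0.00171). The 2 control siRNAs differed from each other by -1.39 (SE 0.35, adjusted p = 0.0456), the 1 member of 8 to pass in the main test, where 2.36% of all genes differed. That difference did not pass with limma (-1.63, adjusted p = 0.0921) or without any 1 of 5 libraries, namely siControl.1 replicate 2 (-0.90), either siControl.2 library (-1.44 and -1.33) or either siFOXA1.2 library (-1.39 in both). The call of FGFBP1 for siFOXA1.1 against both controls was lost without siControl.1 replicate 1 (-0.62), siControl.2 replicate 1 (-0.97) or siFOXA1.1 replicate 1 (-0.67).

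FGFR2 measured 8.94 and 14.0 CPM under siControl.1, 22.8 and 14.5 CPM under siControl.2, 12.9 and 14.4 CPM under siFOXA1.1, and 27.8 and 26.5 CPM under siFOXA1.2 in RT112. Under siFOXA1.1 it overlapped the controls (0.04, SE 0.34, adjusted p = 0.948). Both siFOXA1.2 libraries stood above all 4 controls, at 176% and 186% of the control mean of their batch, but the change of 0.91 on the log2 scale (SE 0.33, unadjusted p = 0.0121 in edgeR) had an adjusted p of 0.206.

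**Figure D2:**
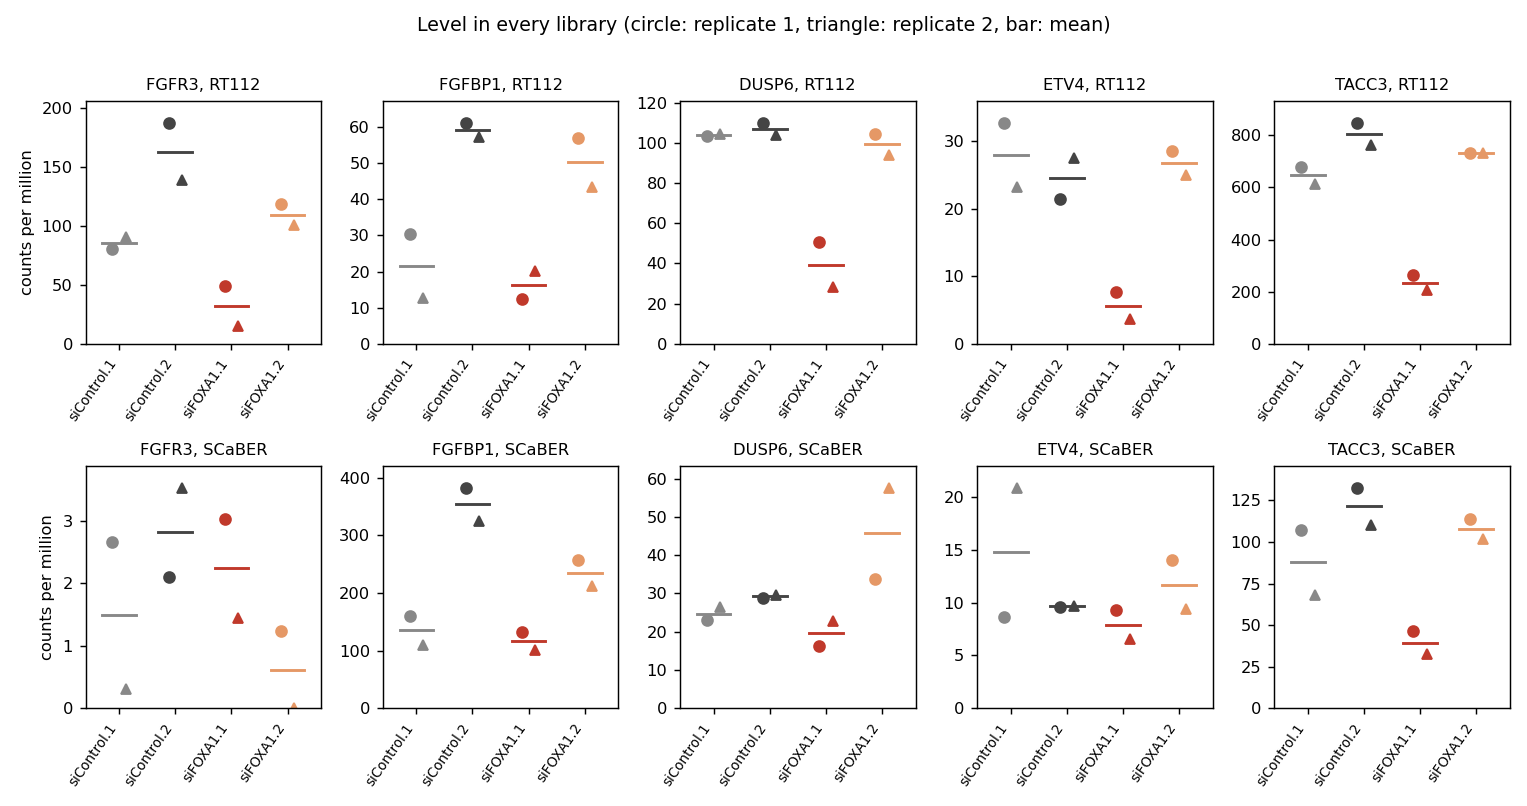
CPM of FGFR3, FGFBP1, DUSP6, ETV4 and the fusion partner TACC3 in each library of RT112 (upper row) and SCaBER (lower row), with circles for replicate 1, triangles for replicate 2 and bars at the mean of both. In RT112 the siFOXA1.1 points of FGFR3 (49.1 and 15.3 CPM), DUSP6 (50.8 and 28.1 CPM) and ETV4 (7.62 and 3.68 CPM) lie below all others, whereas those of FGFBP1 overlap siControl.1.

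The remaining members were too low for a firm statement. SPRY2 had 6, 7, 18 and 11 counts in the RT112 controls, 2 and 3 counts under siFOXA1.1, and 11 and 39 counts under siFOXA1.2. The ratio of control to siFOXA1.1 CPM was 3.95 (95% interval 1.57 to 12.8, counting error only), but the fitted change was -1.69 (SE 1.32, adjusted p = 0.358). SPRY4 had 34, 0, 40 and 17 counts in the controls, 2 and 9 under siFOXA1.1, and 4 and 15 under siFOXA1.2 (-1.69, SE 1.44, adjusted p = 0.403 for siFOXA1.1). FGFR1 had 9, 0, 26 and 2 counts in the controls, 0 and 0 under siFOXA1.1, and 0 and 24 under siFOXA1.2, and FGFR4 had 0 to 9 counts in any library. Neither FGFR1 nor FGFR4 passed the filter. Under siFOXA1.1 or siFOXA1.2 against the controls, none of these 4 genes passed in any alternative. SPRY2 was lower under siFOXA1.1 than under siFOXA1.2 with limma (-1.31, adjusted p = 0.0414), against -3.06 (SE 1.46, adjusted p = 0.133) with edgeR, and FGFR1 was higher in RT112 than in SCaBER without the filter (adjusted p = 0.0237), where SCaBER was at 0.

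The siFOXA1 siRNAs did not act alike on the members in RT112. Under siFOXA1.2 none of the 8 members tested passed (lowest adjusted p = 0.206, 1 at an unadjusted p under 0.05, and 0 also with DESeq2, limma and the replicate block), where 2.04% of all genes changed. Tested directly, 4 members were lower under siFOXA1.1 than under siFOXA1.2, where 15.1% of all genes were lower. FGFR3 differed by -1.66 (SE 0.32, adjusted p = 0.000868), FGFBP1 by -1.51 (SE 0.36, adjusted p = 0.00422), DUSP6 by -1.22 (SE 0.22, adjusted p = 0.000490) and ETV4 by -2.13 (SE 0.40, adjusted p = 0.000589). With both siFOXA1 siRNAs pooled against both controls, no member passed (lowest adjusted p = 0.501, 0 at an unadjusted p under 0.05, and 0 also with DESeq2, limma and the replicate block), and 0.108% of all genes did. FOXA1 itself was lower under siFOXA1.1 than under siFOXA1.2 (-2.34, SE 0.50, adjusted p = 0.00181), so the strength of the knock-down and the siRNA sequence cannot be told apart.

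In SCaBER, 1 of 7 members tested was lower under siFOXA1.1, where 4.79% of 11902 genes were lower and 9.26% changed in either direction. This was FGFBP1, which measured 161 and 110.5 CPM under siControl.1, 383 and 325 CPM under siControl.2, 133 and 101 CPM under siFOXA1.1, and 257 and 212 CPM under siFOXA1.2. The order of the siRNAs resembled that in RT112, with siControl.1 and siFOXA1.1 low and siControl.2 and siFOXA1.2 high. The log2 change of -0.87 (SE 0.22, adjusted p = 0.0226) was -0.18 against siControl.1 alone (adjusted p = 0.785) and -1.57 against siControl.2 alone (adjusted p = 0.00170), and the call was lost without siControl.1 replicate 1 (-0.72, adjusted p = 0.0612), siControl.2 replicate 1 (-0.80, adjusted p = 0.106), siControl.2 replicate 2 (-0.92, adjusted p = 0.0566) or siFOXA1.1 replicate 2 (-0.65, adjusted p = 0.108). The SCaBER controls differed in FGFBP1 by -1.39 (SE 0.25, adjusted p = 0.0558), and by -1.42 (adjusted p = 0.00603) with the batch as a block, where 0.0672% of genes differed without the block.

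DUSP6 in SCaBER measured 23.0 and 26.5 CPM under siControl.1, 28.9 and 29.6 CPM under siControl.2, 16.3 and 22.8 CPM under siFOXA1.1, and 33.8 and 57.7 CPM under siFOXA1.2. The siFOXA1.1 libraries lay just below all controls and the siFOXA1.2 libraries above them. Neither change passed (-0.43, SE 0.31, adjusted p = 0.463, and 0.78, SE 0.29, adjusted p = 0.766). Between the siFOXA1 siRNAs, 1 of the 7 members differed, where 4.85% of genes did, namely FGFBP1 (-0.99, SE 0.25, adjusted p = 0.0328). DUSP6 differed by -1.21 (SE 0.35, adjusted p = 0.0668), and by -1.20 (adjusted p = 0.0427) with the batch as a block.

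FGFR2 in SCaBER measured 18.0 and 9.51 CPM under siControl.1, 7.79 and 10.8 CPM under siControl.2, 4.73 and 4.92 CPM under siFOXA1.1, and 11.3 and 11.2 CPM under siFOXA1.2. Both siFOXA1.1 libraries lay below all controls, at 36.8% and 48.4% of the control mean of their batch, with a log2 change of -1.19 (SE 0.52, adjusted p = 0.184). ETV4 was 8.65, 20.9, 9.57 and 9.72 CPM in the controls, 9.28 and 6.51 under siFOXA1.1, and 14.0 and 9.35 under siFOXA1.2, and its groups overlapped (-0.56, SE 0.50, adjusted p = 0.578 for siFOXA1.1). ETV5 was 32.1, 33.4, 37.3 and 64.04 CPM in the controls, 38.8 and 41.2 under siFOXA1.1, and 39.8 and 53.1 under siFOXA1.2 (0.01, SE 0.27, adjusted p = 0.989 for siFOXA1.1).

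FGFR3 was near the floor in SCaBER, at 2.66, 0.312, 2.11 and 3.53 CPM in the controls, 3.03 and 1.45 under siFOXA1.1, and 1.23 and 0 under siFOXA1.2. Its change of 0.16 under siFOXA1.1 had an SE of 1.29 (adjusted p = 0.963). SPRY4 had 22, 15, 14 and 0 counts in the SCaBER controls and 22 and 55 counts under siFOXA1.1 (1.69, SE 1.16, adjusted p = 0.431), SPRY2 had 3 to 23 counts in any library, and FGFR1 was at 0 throughout. No member passed under siFOXA1.2 (lowest adjusted p = 0.766, 1 at an unadjusted p under 0.05, and 0 with DESeq2, limma and the replicate block), where 0.0420% of genes did. None passed with the siFOXA1 siRNAs pooled (lowest adjusted p = 0.772, 0 at an unadjusted p under 0.05, and 0 with the other tools), where 0.00840% of genes did.

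**Figure D3:**
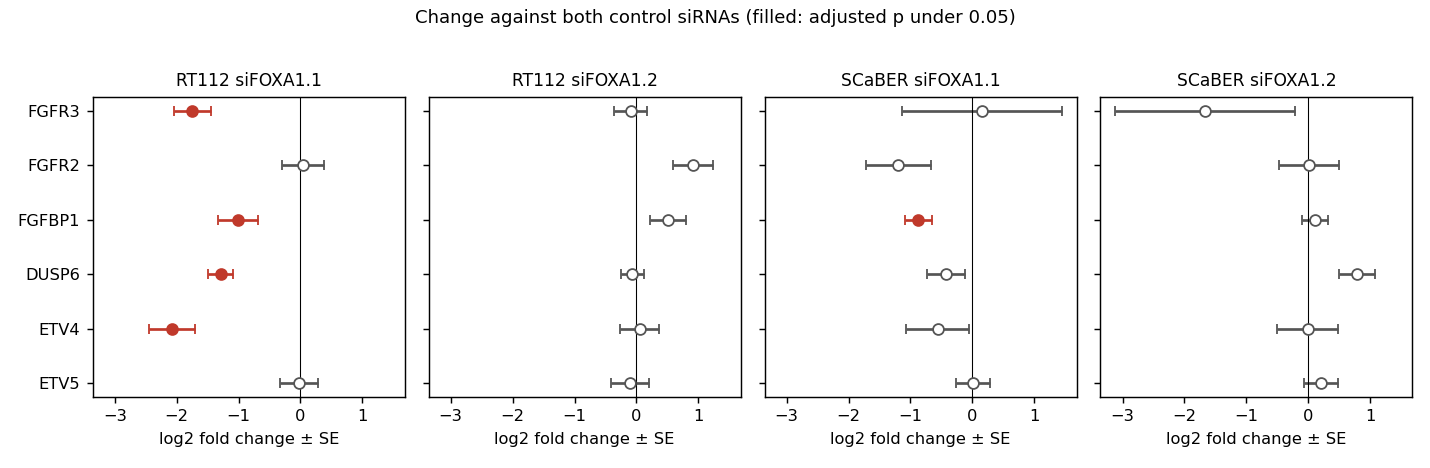
Fitted log2 fold change of 6 members against both control siRNAs, with bars of 1 SE on each side, for each siFOXA1 siRNA and line, and filled points where the adjusted p was under 0.05. FGFR3, FGFBP1, DUSP6 and ETV4 are filled for RT112 siFOXA1.1, FGFBP1 for SCaBER siFOXA1.1, and no point is filled for siFOXA1.2.

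Whether a siRNA acted differently in the 2 lines was tested with an interaction term over all 16 libraries. For siFOXA1.1 none of 8 members passed, where 3.14% of 13701 genes did. The lowest adjusted p was 0.193, 4 members had an unadjusted p under 0.05, and DESeq2, limma and the replicate block gave 0. ETV4 fell further in RT112 than its value in SCaBER by -1.53 (SE 0.60, adjusted p = 0.193), DUSP6 by -0.88 (SE 0.36, adjusted p = 0.219) and FGFR3 by -1.91 (SE 0.83, adjusted p = 0.257), while FGFR2 had the opposite sign (1.21, SE 0.57, adjusted p = 0.302). The change of these genes in RT112 is therefore not shown to differ from that in SCaBER. Without the filter on low counts FGFR3 passed (-1.92, adjusted p = 0.00978). For siFOXA1.2 none passed (lowest adjusted p = 0.713, 1 at an unadjusted p under 0.05, DUSP6 at -0.85, and 0 with DESeq2, limma and the replicate block), where 0.0438% of genes did.

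TACC3, a protein of the mitotic spindle, is given beside FGFR3, since a 3' library counts an FGFR3-TACC3 fusion transcript at the TACC3 end (chr4:1720631-1745171). In RT112 it measured 679 and 611 CPM under siControl.1, 845 and 763 CPM under siControl.2, 265 and 205 CPM under siFOXA1.1, and 732 and 732 CPM under siFOXA1.2. In SCaBER it measured 107, 68.3, 133 and 110.2 CPM in the controls, 46.2 and 32.8 CPM under siFOXA1.1, and 114 and 102 CPM under siFOXA1.2. Both lines thus had lower TACC3 under siFOXA1.1, at -1.49 (SE 0.11, adjusted p = 2.48e-08) in RT112 and -1.35 (SE 0.26, adjusted p = 0.00471) in SCaBER, and the interaction was -0.15 (SE 0.27, adjusted p = 0.902). Under siFOXA1.2 the changes were 0.04 (adjusted p = 0.940) and 0.08 (adjusted p = 0.999). TACC3 was higher in RT112 than in SCaBER by 2.80 (SE 0.19, adjusted p = 2.46e-08). The share of RT112 TACC3 counts that came from the fusion was not measured here.

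In each line most genes of the FGF family had no counts, although FGF2 was well above the floor in SCaBER. FGF protein, including any from the serum, was not measured. Of 22 FGF genes, 6 exceeded the floor in some RT112 library and, counted separately, 6 in some SCaBER library. In RT112 15 were at 0 in every library, and in SCaBER 14. FGF2, a ligand of several FGF receptors, was at 0 in all RT112 libraries and at 42.2 to 95.4 CPM in the SCaBER controls, at least 163-fold higher with 3 counts per library as the floor for RT112. FGF2, FGF1 and FGF13 were the FGF genes tested for siFOXA1 in SCaBER, and 0 of 3 passed with edgeR at either siRNA (FGF2 0.46, SE 0.27, adjusted p = 0.338 under siFOXA1.1, and no unadjusted p under 0.05 for the 3).

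Among FGF co-receptors and binding proteins, 4 of 5 tested changed under siFOXA1.1 in RT112, 3 lower and 1 higher, where 32.6% of all genes changed, 17.0% lower. FLRT3, a membrane protein that binds FGF receptors, fell from 16.0 to 27.9 CPM in the controls to 7.07 and 9.08 CPM (-1.31, SE 0.35, adjusted p = 0.00712). FGFRL1, a receptor without a kinase domain, fell by 1.08 and SDC1, a heparan sulphate proteoglycan, by 0.80 on the log2 scale, while the related proteoglycan SDC4 rose from 290 to 479 CPM in the controls to 588 and 659 CPM (0.91). The control siRNAs differed in SDC4 by 0.68 (adjusted p = 0.00541), and its rise was 0.57 against siControl.1 alone and 1.25 against siControl.2 alone, passing against both. SDC4 also rose in SCaBER, from 178 to 391 CPM to 719 and 769 CPM (1.51, adjusted p = 3.72e-05), the 1 of 4 tested there to pass with edgeR, where 9.26% of all genes did. Against siControl.1 alone the SCaBER rise was 1.05 and against siControl.2 alone 1.97, and the controls there differed by 0.92 (adjusted p = 0.0946). Of the same 4 genes, 2 passed in SCaBER with DESeq2, 1 with limma and 2 with the replicate block. The SDC1 change in SCaBER was -0.77 (SE 0.23, adjusted p = 0.0511 with edgeR). The FGFRL1 call was lost without siControl.1 replicate 2 (adjusted p = 0.0508) or siFOXA1.1 replicate 2 (adjusted p = 0.0711).

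Between receptor and ERK, the share of genes called in RT112 under siFOXA1.1 was near or below that of all genes (32.6%). Whether it differed from that share was not tested. Of 10 receptor adaptors tested in RT112, the phosphatase PTPN11 (0.94) and the adaptor GRB2 (0.63) rose and the RAS activator SOS1 (-0.69) fell under siFOXA1.1. Of the 13 genes of the RAS to ERK cascade reported here, NRAS (0.95) rose, and the ERK gene MAPK3 (-1.0003) and the ERK substrate kinase RPS6KA1 (-1.11) fell. In SCaBER 0 of these 13 passed under siFOXA1.1 with edgeR (0 at an unadjusted p under 0.05), DESeq2, limma and the replicate block. In RT112 the NRAS call was lost without siControl.1 replicate 1, siControl.2 replicate 1 or siFOXA1.1 replicate 2 (0.64 to 0.89), with limma (0.53, adjusted p = 0.117) and against siControl.2 alone (0.47, adjusted p = 0.361). The GRB2 call was lost with limma (0.31, adjusted p = 0.166), the RPS6KA1 call without siControl.1 replicate 1, siControl.2 replicate 1 or either siFOXA1.1 library (-1.17 to -1.03) or against siControl.2 alone (-1.05), and the SOS1 call without siControl.1 replicate 1, siControl.2 replicate 2 or siFOXA1.1 replicate 1 (-0.61 to -0.48) or against siControl.1 alone (-0.63). Of 10 adaptors, 0 passed in SCaBER with edgeR (2 at an unadjusted p under 0.05), 1 with DESeq2, 0 with limma and 1 with the replicate block.

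Of the ERK feedback genes outside the 10 members, 4 of 11 tested in RT112 changed under siFOXA1.1, 3 lower and 1 higher, a share near the 32.6% of all genes. DUSP9, a phosphatase of the same family as DUSP6, went from 91.5 to 127 CPM in the controls to 16.4 and 23.9 CPM (-2.27, SE 0.20, adjusted p = 1.55e-07). DUSP4, a nuclear phosphatase, went from 30.5 to 35.3 CPM to 4.98 and 15.0 CPM (-1.59), a call lost without siFOXA1.1 replicate 1 (-0.99, adjusted p = 0.0617). LRIG1, an inhibitor of receptor tyrosine kinases, had 2 counts in each siFOXA1.1 library and 15 to 49 counts in the controls, a control to siFOXA1.1 ratio of 14.9 (95% interval 5.69 to 55.7, counting error only). The Sprouty gene SPRY1 went the other way, from 0 to 2.76 CPM in the controls to 7.96 and 15.8 CPM under siFOXA1.1 (3.42), and measured 8.74 and 11.1 CPM under siFOXA1.2 (3.05, adjusted p = 0.0508). Under siFOXA1.2 in RT112, 0 of these 11 passed with edgeR (4 at an unadjusted p under 0.05), 2 with DESeq2, 0 with limma and 1 with the replicate block. The SPRY1 value rested on few control counts and was 6.57 without siControl.1 replicate 1, and the LRIG1 call was lost without siControl.1 replicate 1, siControl.2 replicate 2 or either siFOXA1.1 library (adjusted p = 0.0619 to 0.0691). In SCaBER 0 of 12 passed with edgeR under siFOXA1.1 (4 at an unadjusted p under 0.05), 3 with DESeq2, 1 with limma and 1 with the replicate block.

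Of 12 other ERK target genes tested in RT112, 4 fell and 2 rose under siFOXA1.1, where 32.6% of all genes changed. The AP-1 subunit gene FOS went from 16.9 to 22.8 CPM in the controls to 3.08 and 3.83 CPM (-2.41), and the receptor gene EPHA4 from 42.9 to 76.2 CPM to 8.54 and 19.3 CPM (-1.88). The cyclin gene CCND1 (-0.47) and PHLDA1 (-0.45) fell less. DUSP1 (1.90), a phosphatase that acts on stress kinases as well as ERK, and the early gene IER2 (0.67) rose. The EPHA4 change ran from -2.54 to -1.43 with a library left out. The DUSP1 call was lost without siControl.1 replicate 1, siControl.2 replicate 2 or either siFOXA1.1 library (1.74 to 1.90). Against siControl.2 alone the DUSP1 change was 1.38 (adjusted p = 0.209). The IER2 call was lost with limma (0.34, adjusted p = 0.0528). In SCaBER 4 of 11 changed, where 9.26% of all genes did, with the urokinase receptor gene PLAUR (1.65) and IER2 (0.82) higher and the potassium channel gene KCNN4 (-1.33) and CCND1 (-0.69) lower. Of these, the IER2 call was lost without siControl.2 replicate 2 (0.76), the CCND1 call without siControl.2 replicate 1 (-0.66) or 2 (-0.70) or against siControl.2 alone (-0.45, adjusted p = 0.152), and the KCNN4 call without any 1 of 6 libraries (-1.41 to -1.05), with limma (-1.24) and against siControl.2 alone (-1.08), while PLAUR passed throughout, at 1.12 to 2.05. Under siFOXA1.2 the only gene of the 6 pathway lists to pass with edgeR was the chromatin protein gene HMGA2 in RT112 (2.08, adjusted p = 0.0257), at 10.8 and 30.05 CPM against 3.62 to 6.12 CPM in the controls, and this call was lost without any 1 of 5 libraries, namely the 4 controls (1.95 to 2.23) and siFOXA1.2 replicate 2 (1.15, adjusted p = 0.702), as well as with limma (1.05) and against either control alone (2.16 and 1.99). In SCaBER 0 passed under siFOXA1.2 with edgeR, limma and the replicate block, and 2 with DESeq2, 1 of 4 co-receptors and 1 of 11 targets, with 6 genes of the lists at an unadjusted p under 0.05 in edgeR.

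**Figure D4:**
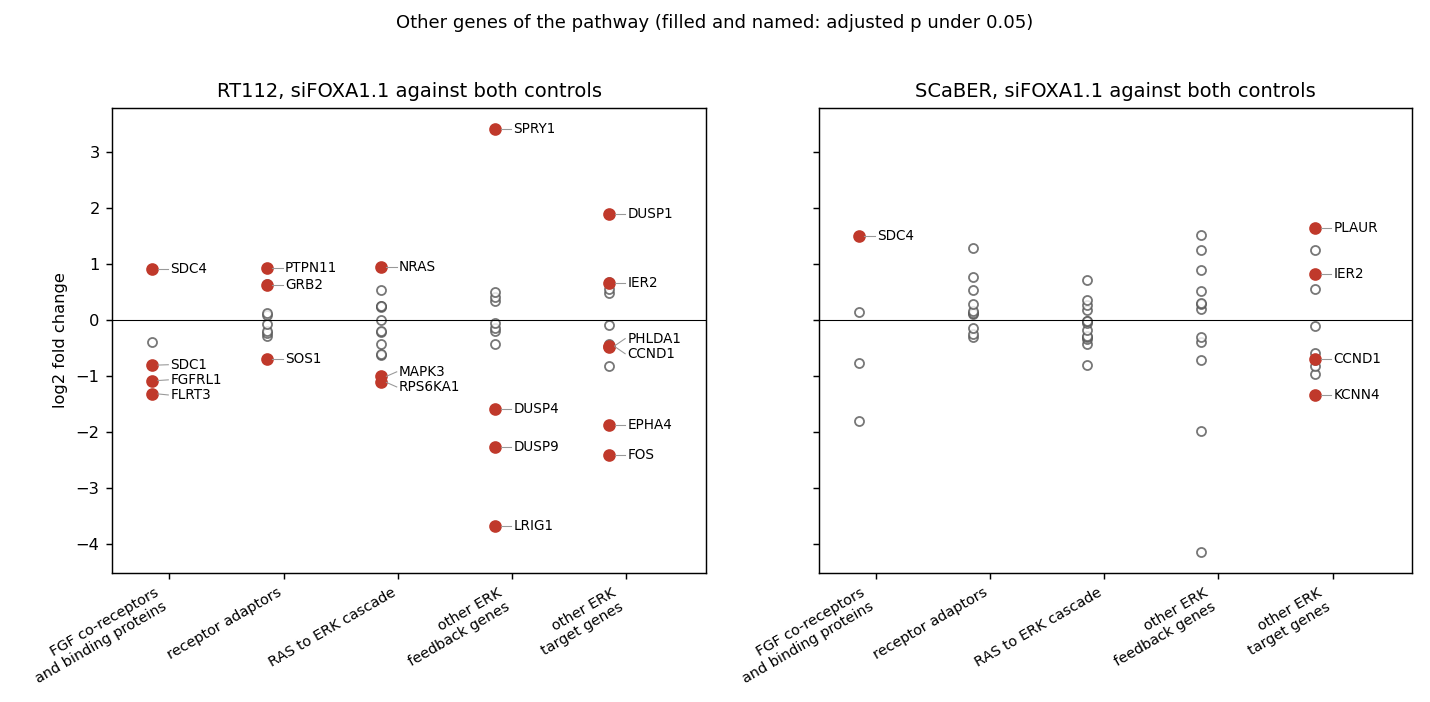
Fitted log2 fold change under siFOXA1.1 against both control siRNAs for the tested genes of 5 pathway lists outside the 10 members, in RT112 and SCaBER, with genes at an adjusted p under 0.05 filled and named. In RT112 named genes lie on both sides of 0 in every list, from LRIG1 at -3.67, a value that rests on 2 counts in each siFOXA1.1 library, to SPRY1 at 3.42.

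The lines also differed in the rest of the pathway under the control siRNAs, where 43.4% of all genes differed. Of 11 other feedback genes tested, 4 were higher and 2 lower in RT112, with DUSP9 at 3.33 (SE 0.19, adjusted p = 5.07e-09) and DUSP7 at -2.48 (SE 0.38, adjusted p = 9.42e-05). Of 13 other ERK targets, 6 were higher and 4 lower, with FOS at 4.95 in favour of RT112 and EGR1 (-6.21), HMGA2 (-5.65) and FOSL1 (-4.85) in favour of SCaBER. ERK targets as a whole therefore did not share the direction of DUSP6 and ETV4. Of the co-receptors, FLRT3 (5.55), SDC1 (1.70) and FGFRL1 (1.58) were higher in RT112 and none of 6 was lower.

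Genes with a pattern like that of FGFR3 and DUSP6 were ranked by Pearson's r of log2 CPM, given as a description. Across the 8 RT112 libraries and 8413 genes, those most like FGFR3 were PREP (r = 0.990), CHST14 (0.989), GLUL (0.986), CUL1 (0.986) and FAM45A (0.985). DUSP6 ranked 106th (0.946) and ETV4 625th (0.874) on that scale, and FGFR2 3526th (0.393). Across all 16 libraries with the mean of each line subtracted and 7370 genes, those most like DUSP6 were TMX4 (0.922), DDIT4 (0.922), MTOR (0.913), CMTM4 (0.912) and MELK (0.906), with ETV4 at rank 496 (0.747). These values share libraries and depth, and in RT112 they rest mainly on the distance of the siFOXA1.1 libraries from the others.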

How the data were processed

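RNA from 16 libraries was prepared with a Lexogen 3' kit and sequenced. Per the deposited configuration, the authors trimmed reads with TrimGalore 0.6.2 (minimum quality 20, minimum length 10), aligned them to hg38 with STAR 2.6.1a and counted them on GENCODE 29. By contrast, hg19 and 10 ng of siRNA are given in the published methods, whereas the labels give hg38 and 10 nM. The authors deposited raw counts per gene and TPM values. Counting error alone is covered by the floor of 3 counts and the exact binomial intervals. The labels do not say whether replicates are separate cultures, so p-values measure only the spread between these libraries.

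Counts were tested with edgeR 4.0.16 in R 4.3.3 (TMM, filterByExpr, quasi-likelihood F test, Benjamini-Hochberg over all genes tested, threshold 0.05), with each line fitted on its 8 libraries, the control comparison of the lines on 8 libraries and the interaction on 16. The SE was computed from the fold change and F. CPM, TPM and likeness were computed in Python 3.11.15 with pandas 2.3.3. The members and lists were chosen with earlier results of these data known. Genes outside the 10 were named where they were among the 4 largest changes of a list with an adjusted p under 0.05 and a mean of at least 20 counts, or the 5 most like FGFR3 or DUSP6. FOXA1 and TACC3 were named in any case, and CCND1 and PHLDA1 in RT112, FGF2, and the genes named between the lines were chosen after their values were seen. A result on 1 gene of the lists is not reported here. The per-library values of replicates differed by more than sampling noise in all 8 groups, so no library was counted as a repeat. Alternatives were library totals, mitochondrial genes left out, no filter beyond 1 count, DESeq2 1.42.0, limma 3.58.1 on log2(TPM + 1), a single control, a replicate block and each library left out.

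The labels call the replicate number an experiment batch, which pairs the libraries. The deviations of same-numbered libraries correlated at 0.0186 to 0.0642 over 6 pairs in RT112 and at 0.0475 to 0.416 over 6 pairs in SCaBER, 1 of them over 0.1.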

Additional observations from a re-analysis of the deposited data

Results flagged for a closer look

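A library far from the other 3 of its line and target was sought for each member in 40 groups of 4 libraries. Chance would flag about 1 in 20 if the libraries of a group were alike, but each group joins 2 siRNAs. Where the other 3 libraries are at 0, any value is flagged. The values found were FGFR1 in RT112 siFOXA1.2 replicate 2 (3.28 CPM, the others at 0), FGFR4 in RT112 siControl.1 replicate 1 (0.263 CPM, under the floor, the others at 0), and DUSP6 in RT112 siControl.2 replicate 1 (109.6 CPM against 103 to 104 CPM). In SCaBER they were ETV4 in siControl.1 replicate 2 (20.9 CPM against 8.65 to 9.72 CPM), ETV5 in siControl.2 replicate 2 (64.04 CPM against 32.1 to 37.3 CPM) and ETV5 in siFOXA1.2 replicate 2 (53.1 CPM against 38.8 to 41.2 CPM).

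For 5 genes of the pathway lists the change under siFOXA1.1 differed between the lines by the interaction test in edgeR. SPRY1 had a difference of 7.53 on the log2 scale (SE 1.70, adjusted p = 0.0200), with 0 to 2.76 CPM in the RT112 controls, 7.96 and 15.8 CPM under siFOXA1.1, and 3.58 to 11.5 CPM against 0 and 0.578 CPM in SCaBER. The value rests on libraries at or near 0 and ran from 3.91 to 11.6 over the alternatives, and the call was lost without siFOXA1.1 replicate 1 of SCaBER (6.70, adjusted p = 0.0727) or of RT112 (6.99, adjusted p = 0.0611). DUSP4 had a difference of -2.50 (SE 0.64, adjusted p = 0.0384), with 30.5 to 35.3 CPM against 4.98 and 15.0 CPM in RT112 and 10.2 to 31.2 CPM against 32.1 and 33.3 CPM in SCaBER, and the call was lost without any 1 of 8 libraries (adjusted p up to 0.162). EGR1 differed by 4.68 (adjusted p = 0.0132) and by 1.93 (adjusted p = 0.462) without RT112 siFOXA1.1 replicate 2, which held 12.5 CPM against 1.03 CPM in the other library. PTPN11 differed by 0.81 (adjusted p = 0.0477) and JUNB by -0.99 (adjusted p = 0.0440), and these calls were lost in 18 and 14 of 22 alternatives.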

How the results depend on the processing

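The calls of FGFR3, DUSP6 and ETV4 for RT112 siFOXA1.1 held in all 16 alternatives, and no called value of a member, and no called siFOXA1 or interaction value of a named gene, changed sign where recomputed. CCND1 and PHLDA1 in RT112 and the genes outside the members named between the lines were not recomputed. Values that had not passed did change sign with the control. Under siFOXA1.1 in RT112 FGFR2 was 0.35 against siControl.1 and -0.28 against siControl.2, and ETV5 0.34 and -0.40. Under siFOXA1.2 FGFR3 was 0.35 and -0.52 and FGFBP1 1.201 and -0.19. With library totals alone the median change of all genes under siFOXA1.1 in RT112 moved to -0.14 and with limma on TPM to -0.29, and the share of calls that were higher fell from 47.9% to 36.9% and 21.3%. Between the lines limma moved the median to -0.32 and that share from 48.9% to 28.6%, and in SCaBER under siFOXA1.1 it moved the share from 48.3% to 35.2%. The number of members called for RT112 siFOXA1.1 was 4, and 3 against siControl.1 alone and 3 to 4 with a library left out. For siFOXA1.1 against siFOXA1.2 in RT112 it was 4, and 5 with limma, and between the lines it was 4, and 6 without the filter, where ETV5 and FGFR1 were added. The following counts moved by over 1.5 times. Between the RT112 controls it was 1, 2 without the filter, 0 with limma and 0 to 2 with a library left out. For SCaBER siFOXA1.1 it was 1, 0 against siControl.1 alone and 0 to 1 with a library left out. Between the siFOXA1 siRNAs in SCaBER it was 1, 2 with DESeq2, without the filter or with the replicate block, 0 with limma and 0 to 1 with a library left out. Between the SCaBER controls it was 0 (1 at an unadjusted p under 0.05), and 1 with DESeq2, without the filter or with the replicate block, and 0 to 1 with a library left out. For the interaction with siFOXA1.1 it was 0, and 1 without the filter. Apart from the DUSP6 and FGFBP1 values given above, the replicate block changed no call of a member. The cause of these changes was not tested. With 2 libraries per siRNA, depth limits SPRY2, SPRY4, FGFR1 and FGFR4 in both lines and FGFR3 in SCaBER.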
